A study of Mus musculus with 3 samples.

Results

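The GIMAP genes (GTPases of immunity-associated proteins) form a cluster on mouse chromosome 6, and their RNA was examined in T-helper 1 (Th1) cells, CD4 helper T cells known for making interferon-gamma. The members are Gimap1, Gimap3, Gimap4, Gimap5, Gimap6, Gimap7, Gimap8 and Gimap9, the 8 genes of the cluster that carry these symbols, out of 50600 genes in the count tables. They were found by gene identifier, all 8 were matched, and all 8 passed the filter on low counts. The series holds 3 libraries of primary Th1 cells from C57BL/6NJ mice, numbered as biological replicates 1, 2 and 3, with no treatment or genotype named beyond the strain and with age unknown. The file headers name a time point of 2 hours that the labels leave out. All 3 libraries share 1 donor entry, and the labels do not tell whether separate animals were used, so p-values measure only the spread between these libraries, which may be technical. Total RNA is given as the assay, but a document on library making cited in the labels has poly(A)+ in its name. With 1 group there was no second condition to compare.

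GIMAP proteins are small GTPases found mainly in lymphocytes, where several members are known from gene deletion to be needed for naive T cells or B cells to survive outside the organs that make them. Each carries a GTP-binding domain, and many are anchored in membranes of the endoplasmic reticulum, mitochondria or lysosomes. The genes arose by duplication and lie side by side, some close enough in sequence or position that a sequencing read may match more than one of them.

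The nucleotide-binding loop (P-loop, the G1 motif of GTPases) shows both the kinship and the difficulty. It was found by translating the annotated coding sequence of each member and is shown as coding bases 5′ to 3′, with the closing codons for glycine, lysine and serine or threonine in capitals. The stretches carry 24 bases each, on build mm10.
Gimap3: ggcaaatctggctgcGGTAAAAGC
Gimap5: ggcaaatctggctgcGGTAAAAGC
Gimap4: ggaaaaactggagcaGGAAAGAGT
Gimap6: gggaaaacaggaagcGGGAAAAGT
Gimap7: gggaaaacaggaagtGGAAAGAGC
Gimap9: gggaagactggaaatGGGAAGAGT
Gimap1: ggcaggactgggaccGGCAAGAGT
Gimap8, first: gggaaacagggcgcaGGCAAAAGT
Gimap8, second: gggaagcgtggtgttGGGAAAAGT
Gimap8, last: ggaaggagtggggctGGAAAGAGT
Gimap8 held 3 such stretches, and the other members held 1 each. The stretches of Gimap3 (minus strand, chr6:48765887-48765910) and Gimap5 (plus strand, chr6:48752594-48752617) were identical base for base. Over the whole coding sequence 89.6% of the bases of Gimap3 matched Gimap5, with a longest identical run of 140 bases, while the other pairs that leave out Gimap8 matched over 48.9% to 65.5% of the shorter sequence. Of all 50-base words in the annotated transcripts, 7.52% of those of Gimap3 and 4.53% of those of Gimap5 occurred in the other gene, and the remaining 6 members shared none with another member. Counts of Gimap3 and Gimap5 are therefore uncertain over these stretches, since the counting command kept no pair that aligned to several places.

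The cluster spans 123.618 kb of chromosome 6 (48647234 to 48770851, mm10). In order along the chromosome come Gimap8, Gimap9, Gimap4, Gimap6, Gimap7, Gimap1, Gimap5 and Gimap3. Gimap6 and Gimap3 lie on the minus strand and the other 6 on the plus strand. A further gene model, the protein-coding gene Gm28053 (48718607 to 48752644), runs from the first exon of Gimap7 to the last exon of Gimap5 and shares exon bases with 3 members: 198 of the 3073 exon bases of Gimap1, 153 of 4149 in Gimap5 and 81 of 2325 in Gimap7. Pairs in exons shared by genes of 1 strand went uncounted. Of 657 genes whose exons lie wholly inside other genes of their strand, 656 had no count, against 62.3% of all genes without a count. The P-loop of Gimap5 lies in such a shared exon of Gm28053 (48752541 to 48752644). On the other strand, the noncoding gene Gimap1os (48738346 to 48741444) covers 1107 exon bases of Gimap1, or 36.0%. Gimap3, Gimap4, Gimap6, Gimap8 and Gimap9 had no exon base in common with any other gene on either strand.

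**Figure D1:**
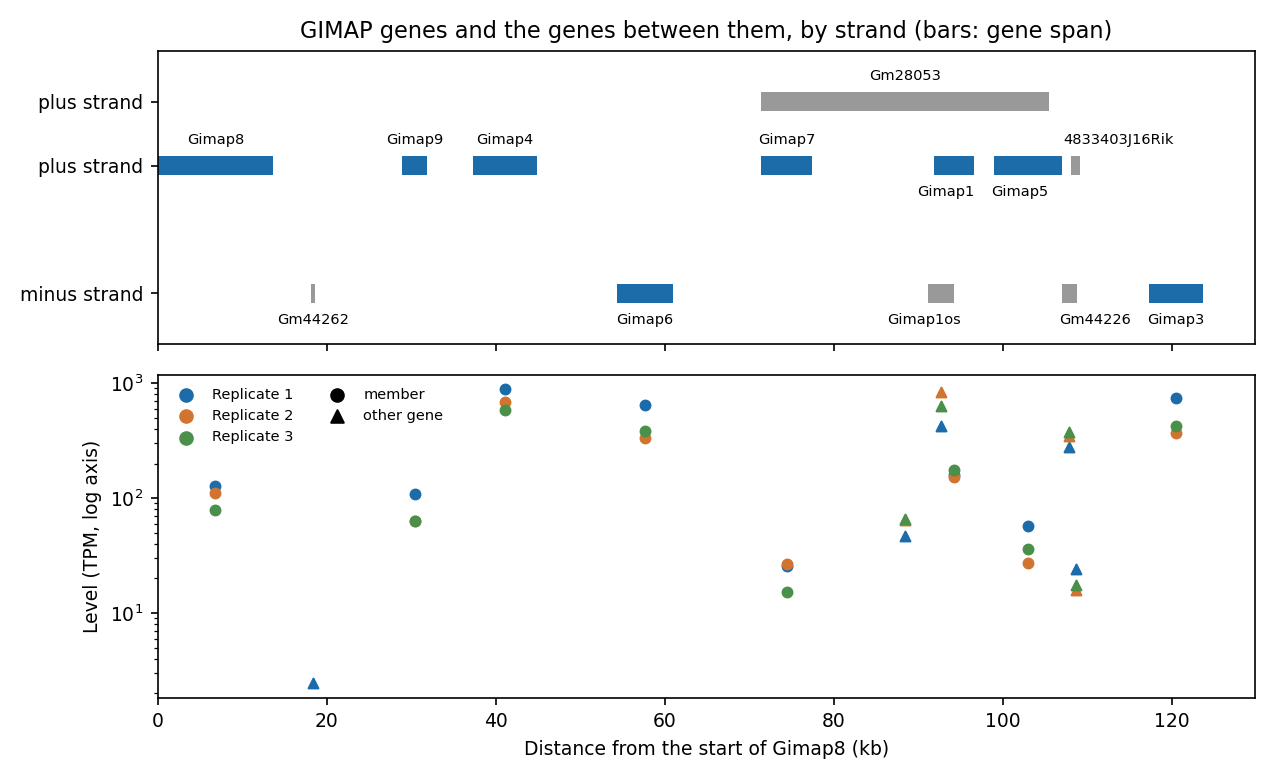
Upper panel: the spans of the 8 GIMAP genes (blue) and of the other genes between them (grey), by strand, against distance from the start of Gimap8 in kb. Lower panel: the TPM of each gene in each library on a log axis, placed at the middle of its span, with values of 0 left out (Gm44262 in replicates 2 and 3). Gimap4, Gimap6 and Gimap3 reach the highest member levels, and Gimap1os lies above Gimap1 in all 3 libraries.

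All 8 members had counts in every library, with means from 22.4 to 716 TPM (counts per exon base, scaled to a fixed total in each library). These levels hold for the strand as counted, and whether the strand setting matched the libraries was not tested. Gimap4 was highest, followed by Gimap3 and Gimap6, and Gimap7 was lowest, with a 31.9-fold range of means. The same order from first to last held in each of the 3 libraries taken alone. The median member level was 133.9 ± 8.59 TPM (SD, n = 3), against 0.252 ± 0.0512 over 21751 protein-coding genes, of which 38.7% reached 1 TPM in every library. Total counts were 4442901, 3123869 and 2950658 in replicates 1, 2 and 3. Of these the 8 members took 15854, 8459 and 7845, or 0.357% (95% Clopper-Pearson interval 0.351 to 0.362), 0.271% (0.265 to 0.277) and 0.266% (0.260 to 0.272), intervals that cover counting error only.

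Gimap4, which in mouse T cells is linked to the pace of cell death, had 883, 680 and 584 TPM in replicates 1, 2 and 3 from 3549, 2343 and 1821 counts. Replicate 1 was highest and replicate 3 lowest. Its mean of 716 ± 153 TPM (SD, n = 3) lay above 99.7% of protein-coding genes on the strand as counted. Gimap3, the near copy of Gimap5 with a known part in the survival of mouse T cells, had 741, 367 and 427 TPM from 4180, 1775 and 1867 counts. Here replicate 1 stood apart from the other 2, and the mean was 512 ± 201 TPM. Gimap6, whose protein binds an autophagy factor of the GABARAP family, had 651, 331 and 381 TPM from 4981, 2172 and 2261 counts. It followed Gimap3 library by library, with a mean of 454 ± 172 TPM. Together these 3 genes held 80.04% ± 2.28 of the summed TPM of the members.

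The middle group comprised Gimap1, Gimap8 and Gimap9. Gimap1, needed in mice for mature T and B cells, had 158, 152 and 174 TPM from 1064, 878 and 908 counts, a mean of 162 ± 11.2 TPM (SD, n = 3). Replicate 3 was its highest library, and it was the only member with an opposed exon. Its spread depended on the scale, with the lowest coefficient of variation of the 8 in TPM, 6.96%, and the second highest SD after TMM scaling, 0.38 in log2 CPM. Gimap8, the member with 3 GTP-binding loops, had 129, 111 and 79.6 TPM from 1042, 767 and 500 counts, with replicate 3 lowest. Gimap9 had 109, 63.6 and 62.8 TPM from 390, 196 and 175 counts, with replicate 1 above the other 2.

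Gimap5 and Gimap7 were lowest. Gimap5, whose loss in mice and rats causes a severe lack of T cells, had 57.05, 27.2 and 35.9 TPM from 518, 212 and 253 counts, a mean of 40.1 ± 15.3 TPM (SD, n = 3). It stood 12.8-fold below its near copy Gimap3 per exon base (95% interval 12.0 to 13.7 from summed counts). The interval covers counting error only and leaves out pairs lost over the stretches that Gimap5 shares with Gimap3 or Gm28053. Gimap7, a GTPase whose human protein is switched on by pairing with a second copy, had 25.5, 26.6 and 15.2 TPM from 130, 116 and 60 counts. Gimap5 and Gimap7 both lose some pairs to the exons shared with Gm28053. Levels were also taken with the same counts divided by unshared exon bases alone, without counting pairs anew. They were 40.8 ± 15.7 TPM for Gimap5, 22.8 ± 6.37 for Gimap7 and 169 ± 12.1 for Gimap1. All lay within 1 SD of the values above.

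**Figure D2:**
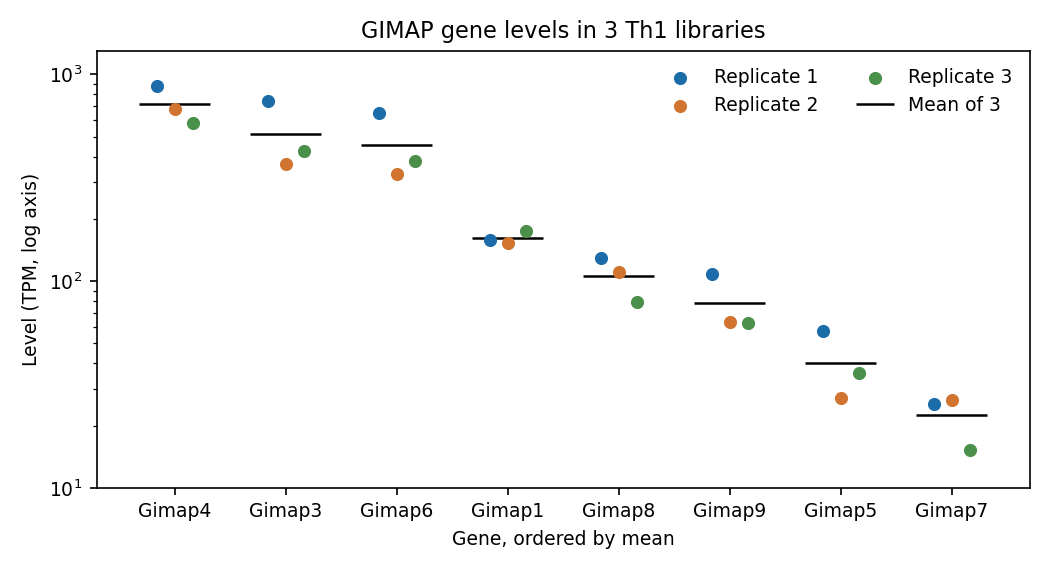
TPM of the 8 GIMAP genes on a log axis, in order of their means, with 1 point per library and a bar at the mean of the 3. Gimap4, Gimap3 and Gimap6 lie between 331 and 883 TPM, and the other 5 between 15.2 and 174 TPM.

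Neighbours in this order were compared within each library, per exon base. All 7 neighbouring pairs kept 1 sign in 3 of 3 libraries, which follows from the same order in each library. For each pair an exact sign-flip test, two-sided, gave p = 0.25, and no smaller p is possible with 3 libraries. The pairs and their direction were taken from these same libraries, so this p was fixed in advance and lends no support to the order. Gimap3 exceeded Gimap6 by a log2 ratio of only 0.17 ± 0.02 (SD, n = 3), the steadiest of the 28 possible pairs. The step from Gimap6 down to Gimap1 was largest at 1.43 ± 0.53. Gimap5 over Gimap7 was the least steady pair, at 0.81 ± 0.67, and in replicate 2 the log2 ratio was 0.03, with 27.2 against 26.6 TPM. The remaining steps were 0.53 ± 0.33 for Gimap4 over Gimap3 and 0.63 ± 0.44 for Gimap1 over Gimap8. Those of Gimap8 over Gimap9 and Gimap9 over Gimap5 were 0.46 ± 0.29 and 0.99 ± 0.22. Some directions rest on the annotated exon lengths. In counts alone, Gimap6 exceeded Gimap3 and Gimap5 exceeded Gimap9 in every library. Gimap4 lay below Gimap3 in replicates 1 and 3, and the other neighbours kept their direction.

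The ratios between members fell into 2 sets and 1 odd gene, which were named after their values were seen and carry no test. Gimap3, Gimap5, Gimap6 and Gimap9 kept nearly fixed proportions, with an SD of the log2 ratio from 0.02 to 0.22 over their 6 pairs. The count ratio of Gimap3 to Gimap6 was 0.839, 0.817 and 0.826 in replicates 1, 2 and 3, a spread below that of counting error, whose SD was 0.04 on the log2 scale. Gimap4, Gimap7 and Gimap8 formed the second set, with SDs from 0.13 to 0.30 over 3 pairs. The 12 pairs that join the sets had SDs from 0.20 to 0.67, so these ranges overlap, and Gimap4 with Gimap9 was the steadiest of the 12. Gimap1 varied against every other member, with SDs from 0.37 to 0.55. Gimap4, Gimap7 and Gimap8 all lie on the plus strand, while the first set holds both minus-strand genes, Gimap3 and Gimap6, with the plus-strand genes Gimap5 and Gimap9. The part of strand in these ratios was not tested.

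**Figure D3:**
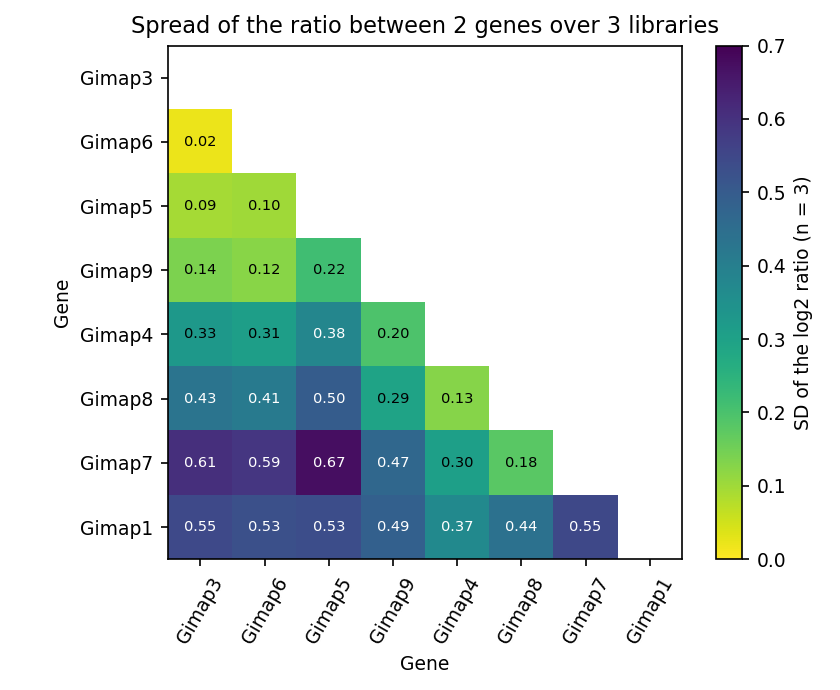
SD over 3 libraries of the log2 ratio between each pair of GIMAP genes, from light (steady) to dark (variable). The steadiest pair is Gimap3 with Gimap6 at 0.02, and the least steady is Gimap5 with Gimap7 at 0.67.

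The spread between libraries was then tested for all 9469 genes with enough counts. Beyond counting noise, 7 of the 8 members differed between the libraries (chi-square test with 2 degrees of freedom, Benjamini-Hochberg adjusted p from 3.88e-30 for Gimap1 to 0.0036 for Gimap5), while Gimap9 did not pass, with an adjusted p of 0.276. Such differences were common, with 59.6% of all genes tested past the same threshold. Without replicate 2 the member count was 3 (Gimap1, Gimap3 and Gimap6), beside 42.4% of all genes tested. Without replicate 1 it was 5, beside 25.6%, or 2476 genes. Against the dispersion trend of genes of like abundance, none of the 8 members stood out in edgeR (0 adjusted, 0 at an unadjusted p under 0.05, and 0 with DESeq2 size factors), beside 0.253% of all genes. That background was 24 genes, which became 3 without replicate 2 and 8 without replicate 3. With 3 libraries, a gene short of this threshold is not thereby shown to be steady. The highest SD of log2 CPM among the members, 0.47 for Gimap7, compares with a median of 0.33 over all genes tested.

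Which library was highest depended on the gene and on the scaling. With TMM scaling over all genes kept, Gimap3, Gimap5, Gimap6 and Gimap9 were highest in replicate 1, Gimap4, Gimap7 and Gimap8 in replicate 2, and Gimap1 in replicate 3. Replicate 2 minus replicate 1 was -0.37 in log2 CPM for Gimap3, -0.33 for Gimap6, 0.27 for Gimap4, 0.43 for Gimap8, 0.71 for Gimap7 and 0.59 for Gimap1. Genes with an exon opposed by another gene took 55.1%, 69.1% and 67.3% of all counts in replicates 1, 2 and 3, and their part in this shift was not tested. When only the 4272 genes with no gene on the other strand were scaled and fitted, Gimap3 and Gimap6 moved to -0.08 and -0.04. Gimap4, Gimap7 and Gimap8 remained highest in replicate 2, by 0.56, 0.99 and 0.71 over replicate 1, and were the 3 of 7 members past the counting noise threshold, beside 36.0% of all genes in that fit. This change of scaling moves the difference between 2 libraries by the same amount in every gene, so the signs of small differences rest on it. In replicate 3 against replicate 1, Gimap4, Gimap5, Gimap6, Gimap7, Gimap8 and Gimap9 all turned from negative to positive, with Gimap5 going from -0.10 to 0.13. Gimap9 also turned in replicate 2 against replicate 1, from -0.12 to 0.17.

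**Figure D4:**
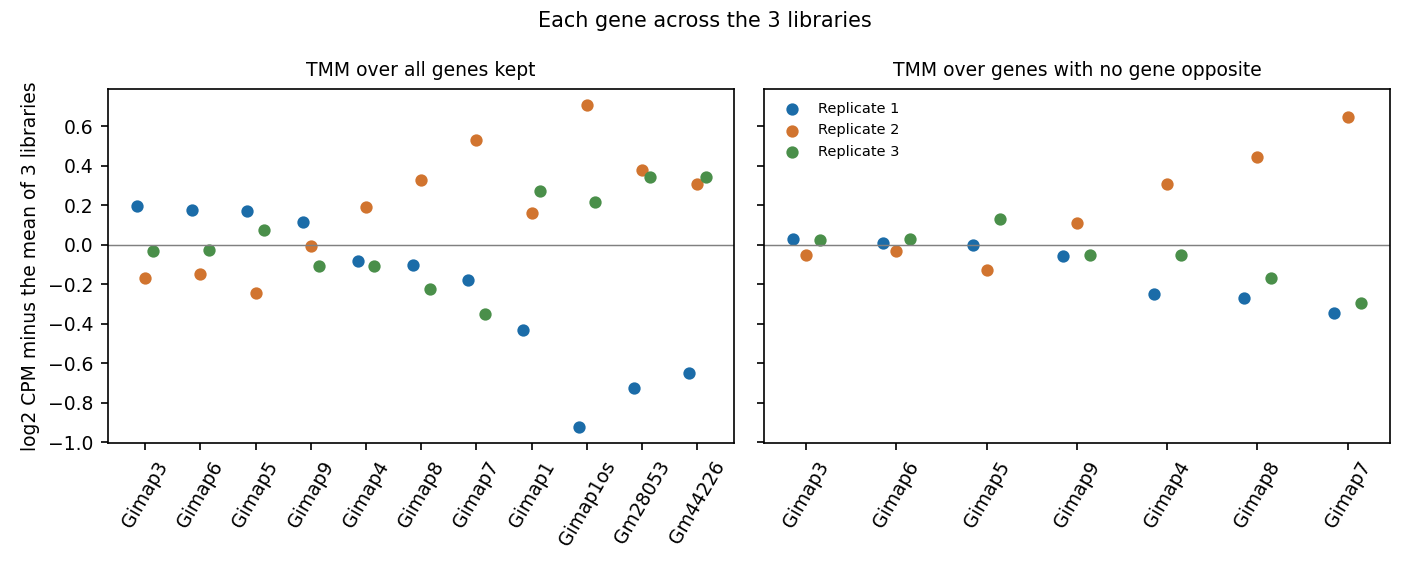
log2 CPM of each gene minus its mean over the 3 libraries, 1 point per library, scaled by TMM over all genes kept (left) and over genes with no gene on the other strand (right, 7 members). Gimap4, Gimap8 and Gimap7 are highest in replicate 2 in both panels, whereas the 3 points of Gimap3 and of Gimap6 lie close together on the right. The last 3 genes of the left panel are other genes within the cluster.

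Other genes within the cluster were also counted. Gimap1os had 2882, 4892 and 3333 counts in replicates 1, 2 and 3, or 425, 842 and 633 TPM. It exceeded Gimap1 on the other strand 2.69-fold, 5.53-fold and 3.64-fold per exon base, a mean of 3.95 ± 1.44 (SD, n = 3). The ratio from summed counts was 3.86 (95% interval 3.71 to 4.03). That interval covers counting error only, and the ratio of each single library lay outside it. The values of Gimap1os and Gimap1 are uncertain, because reads of their shared stretch are told apart by strand alone. A strand setting opposite to the libraries would assign that stretch's reads to the other gene. Gm44226, a noncoding gene on the minus strand that lies just past the end of Gimap5 (48754230 to 48755986), had 725, 772 and 756 counts, or 331 ± 49.01 TPM (SD, n = 3), above Gimap5 in every library. Gm28053 had 101, 119 and 111 counts, of which those in shared exons are lost. In replicates 2 and 3 against replicate 1, log2 CPM was higher by 1.63 and 1.14 for Gimap1os and by 0.96 and 0.99 for Gm44226. Gm28053 was higher by 1.07 in replicate 3, with replicate 2 at a like level. Each was past the counting noise threshold and none was past the dispersion trend after adjustment. Gimap1os had an unadjusted p of 0.037 and an adjusted p of 0.70 in that edgeR test. Gimap1os, Gm44226 and Gm28053 all have exons opposed by another gene. 4833403J16Rik, opposite Gm44226, had 55, 31 and 31 counts and did not pass either test. Of the 13 other genes within 50 kb of the cluster or touching a member, 8 had a count, and outside the cluster Gm38804 led with 34 counts in all, followed by Repin1 with 12.

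Counts were made under strand setting 1, which assigns a pair to the strand of its first read. Across the tables, among 236 pairs of a noncoding gene lying mostly opposite a protein-coding gene, the noncoding gene had the higher count per base in 213, with a median ratio of 31.3. Gimap1os and Gimap1 are not among these pairs, since 35.7% of the exon of Gimap1os overlaps. Whether the setting matched the libraries was not tested. Under a setting opposite to the library, counts of a member would be those of reads from the strand opposite to it, so the levels here hold only for the strand as counted.

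Promoters are shown for the steadiest pair, Gimap3 and Gimap6, and for the highest member, Gimap4, as the 250 bases before the RefSeq start on GRCm38.p6, 5′ to 3′ on the gene's strand. Capitals mark matches, on either strand, to the cores bound by RUNX and ETS factors, 2 families active in T cells, and to the TATA box and GC box of general promoters.
Gimap3 (minus strand, chr6:48770852-48771101): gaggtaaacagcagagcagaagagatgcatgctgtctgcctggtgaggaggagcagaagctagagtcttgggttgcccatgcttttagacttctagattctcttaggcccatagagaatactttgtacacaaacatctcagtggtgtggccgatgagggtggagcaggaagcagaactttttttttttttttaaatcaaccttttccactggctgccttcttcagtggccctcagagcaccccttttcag
Gimap6 (minus strand, chr6:48708245-48708494): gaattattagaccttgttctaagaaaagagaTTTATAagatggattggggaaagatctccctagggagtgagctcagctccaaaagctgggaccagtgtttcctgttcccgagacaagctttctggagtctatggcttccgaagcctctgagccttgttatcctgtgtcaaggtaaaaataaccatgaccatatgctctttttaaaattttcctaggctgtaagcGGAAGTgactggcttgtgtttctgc
Gimap4 (plus strand, chr6:48684328-48684577): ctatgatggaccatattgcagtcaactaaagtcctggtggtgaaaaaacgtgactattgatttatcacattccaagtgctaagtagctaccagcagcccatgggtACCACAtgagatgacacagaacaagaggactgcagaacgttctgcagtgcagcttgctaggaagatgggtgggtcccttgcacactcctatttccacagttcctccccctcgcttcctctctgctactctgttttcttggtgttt
The 8 members had 9 promoter entries, with Gimap8 listed at 2 starts. The RUNX core, searched as TGTGGT, occurred in 3 of the 9 (Gimap1, Gimap4 and Gimap7) and in 14.0% of 32851 mouse promoters of the same length. The ETS core, searched as GGAAGT, occurred in the promoters of Gimap5 and Gimap6 and in 19.7% of all. A GC box, searched as GGGCGG, stood in those of Gimap7 and Gimap9 and in 32.7% of all. A TATA box, searched as TATAAA, stood in that of Gimap6, 219 bases before its start, and in 12.4% of all. No matches to different motifs overlapped in the promoters shown. None of the 9 held the core of the interferon-stimulated element, which 2.98% of all promoters held. The promoter of Gimap3 held none of these motifs, nor did either entry of Gimap8. Any part of these motifs in the levels was not tested. A match is a description of letters, not of a bound site.

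The genes of a fixed list of partners and pathway genes of GIMAP function were all detected. The 14 genes of this list were each at or above 1 TPM in all 3 libraries, and their median was 10.7 ± 4.81 TPM (SD, n = 3), against 133.9 for the members. Atg7, an enzyme of autophagy, had 77.4 ± 3.55 TPM, Gabarap, a marker protein of autophagosomes, 43.5 ± 21.1, and Gabarapl2, the family member that binds GIMAP6 protein in human cells, 12.7 ± 7.26. Among survival factors of the BCL2 family, Mcl1 stood at 170 ± 72.9 TPM, Bcl2, opposed by D630008O14Rik, at 8.63 ± 3.93, and Bcl2l1 at 7.15 ± 2.96. Gsk3b, a kinase tied to Gimap5 function in mouse T cells, had 4.57 ± 1.25 TPM.

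Other GTPase families of immunity were lower in their median than the GIMAP genes. Their 13 genes had a median of 3.21 ± 0.889 TPM (SD, n = 3), and 7 reached 1 TPM in every library. The highest, Igtp, an interferon-induced GTPase of defence inside cells, had 26.4, 13.97 and 15.4 TPM in replicates 1, 2 and 3, a mean of 18.6 ± 6.81. It lay above Gimap7, the lowest member, in replicates 1 and 3 and below it in replicate 2. Gbp9 followed at 8.91 ± 2.69 and Gbp4 at 7.65 ± 2.90, both of the guanylate-binding proteins, and Gvin1 had 2, 2 and 0 counts. The genes of resting T cells lay between, with all 8 at or above 1 TPM in every library and a median of 28.3 ± 11.4 TPM. These included Tcf7 at 117 ± 53.9, Il7r, the receptor for the survival cytokine interleukin-7, at 32.9 ± 12.2 and the homing factor regulator Klf2 at 28.8 ± 12.8.

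Markers bear on which cells the transcripts came from, because B cells, NK cells and endothelial cells also use GIMAP genes. All 8 T cell markers were at or above 1 TPM in each library, with summed levels of 3374, 1555 and 1946 TPM in replicates 1, 2 and 3. Replicate 1 was highest, as it was for the summed members, at 2753, 1759 and 1759 TPM. As a share of counts in genes with no gene on the other strand, the 7 members without Gimap1 were instead highest in replicate 2, at 0.860%, 0.948% and 0.846%. Of 5 endothelial markers, Cdh5, Kdr, Tek and Emcn had no count, and Pecam1 had 7.14 ± 1.37 TPM (SD, n = 3). Of the B cell markers, Ms4a1 and Cd22 had no count, while Cd79a had 36.4 ± 11.1 TPM. The 3 NK cell markers had none. Of the CD8 T cell markers, Cd8a had 2, 1 and 0 counts and Cd8b1 34, 16 and 10. Among the 6 myeloid markers, 2 were above 1 TPM on average. These were Csf1r, opposed by Hmgxb3, at 158 ± 25.3 TPM and Cd68 at 7.23 ± 1.39 TPM. Lyz2 and S100a9 were at 0, while Itgam had 2, 1 and 0 counts and Adgre1 had 1, 0 and 0. Of the 5 Th1 markers, 3 reached 1 TPM in every library. Stat4, a signal carrier of interleukin-12, had 15.9 ± 6.49 TPM, the interleukin-12 receptor gene Il12rb2, opposed by Serbp1, 11.9 ± 3.97, the Th1 master regulator Tbx21 2.53 ± 0.997 and the chemokine receptor gene Cxcr3 0.960 ± 0.541, while Ifng had 1, 2 and 0 counts, below the limit of 3 used here. The part of Cd79a, Csf1r, Cd68 or Pecam1 bearing cells in the member levels was not tested. Whether counts of opposed markers, among them Csf1r and Il12rb2, are reads of the opposite gene was not tested either. All marker counts, opposed or not, hold only for the strand as counted. Under a setting opposite to the library, a count of 0 would not tell whether the marker's own transcript was absent. In bulk RNA, fewer cells of a type and less RNA per cell cannot be told apart.

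By likeness of profile over the 3 libraries, the genes nearest to the summed members were Rest, Trim12a, BC017158, Npat and Irf3, with root mean square differences of 0.0051 to 0.0088 in centred log2 CPM. Rest had 314, 166 and 155 counts and Irf3 449, 237 and 223. With only 3 libraries, 292 of 9461 genes lay within 0.05 of the summed profile, so the ranking separates few genes.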

How the data were processed

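RNA was measured in 3 Th1 libraries. The deposited values are raw read pair counts per gene. Per the file headers, the authors aligned pairs with a step named star2 and counted exons of GENCODE vM13 on mm10 with featureCounts 1.4.6-p4, strand setting 1, both reads aligned. The headers set no option for pairs that overlap several genes or align to several places. Symbols, biotypes and transcripts came from GENCODE vM21, in which all 8 members had the files' coordinates, and 50376 genes (99.56%) were named. TPM was computed here from counts and exon length, CPM from total counts. A count of 0 allows up to 0.675, 0.960 and 1.02 CPM in replicates 1, 2 and 3 at the limit of 3 counts. Overlaps were found with bedtools 2.31.1. A gene is opposed when an exon overlaps an exon of the other strand.

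Spread was fitted on the whole table in edgeR 4.0.16 under R 4.3.3 (intercept only, TMM, filterByExpr at 10). Deviance at the trended dispersion and a counting noise chi-square had 2 degrees of freedom each, Benjamini-Hochberg at 0.05, and were tested on simulated data. With 1 group, no contrast between conditions could be fitted. Intervals of ratios are exact binomial at 95% on counts summed over the libraries, so they cover counting error only. DESeq2 1.42.0 gave alternative size factors. Named genes are the members, the locus within 50 kb, the 5 nearest profiles and fixed lists. Members and lists were chosen with earlier results of these data known. A listed marker gene is not reported here.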

Additional observations from a re-analysis of the deposited data

How the results depend on the processing

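The order of the 8 members was the same under every change of the total and without each replicate. Neither change could alter it, since each library alone held the same order. Over unshared exon bases (an alternative chosen after seeing the data) the order was also the same. In CPM, which leaves out gene length, 3 of the 8 kept their place. The summed level of the members, 2090 TPM, was 5641 when scaled over protein-coding genes alone and 10478 over genes with no gene on the other strand, whose totals are smaller by construction, and all 8 single levels rose with it. Without 1 replicate the sum was 1759 to 2256 TPM. None of the 7 ratios of neighbours changed sign, which was fixed by each having 1 sign in all 3 libraries. The number of members beyond counting noise was 5, 3 and 7 without replicates 1, 2 and 3 in turn. That of all genes was 2476, 4299 and 4816, or 25.6%, 42.4% and 47.3% of genes tested. Fitted over only genes with no gene on the other strand, chosen after seeing the data, these were 3 and 1536 (36.0% of genes tested), with fewer genes tested. Genes beyond the dispersion trend numbered 24, and were 3 to 21 without 1 replicate, 44 with no filter on low counts and 55 over genes with no gene on the other strand. The cause of these changes was not tested. No member was beyond the trend under any of these settings, with 1 member, Gimap7, at an unadjusted p under 0.05 over genes with no gene on the other strand. Levels of Gimap7 rest on 60 to 130 counts per library. No paired analysis was possible because the series has 1 group.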
